A study of Mus musculus with 2 samples.

Results

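The 6 genes Ndn, Magel2, Mkrn3, Peg12, Snrpn and Ube3a of the imprinted Prader-Willi/Angelman locus were followed in newborn mouse forebrain. They were taken by Ensembl identifier from the deposited gene and transcript tables, and all 6 of the 43346 genes in these tables were found and passed the count filter of a mean of 10 counts. Total RNA longer than 200 nt, depleted of ribosomal RNA, had been sequenced as stranded paired-end libraries. Both libraries came from forebrain of healthy mice at postnatal day 0 (age 0 days, strain B6NTac;B6NCrl/Lap, males and females pooled) and form 1 group with no treatment. The labels give replicate 1 as a pool of 15 mice and replicate 2 as a pool whose size is not stated, call them separate tissue isolates, and give them the same donor identifier. Each ± below is an SD over these n = 2 libraries, and p-values compare the reads of these libraries only.

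The locus lies on mouse chromosome 7 in the region that corresponds to human 15q11-q13. Ndn, Magel2, Mkrn3, Peg12 and Snrpn are known to be transcribed from the paternal allele, while Ube3a in mature neurons is transcribed mainly from the maternal allele. The paternal noncoding transcript Snhg14, which starts near Snrpn, carries snoRNA clusters and runs antisense into Ube3a. An imprinting centre at the Snrpn promoter is known to govern the paternal genes. Loss of the paternal products in people causes Prader-Willi syndrome, and loss of maternal UBE3A causes Angelman syndrome. The tables hold no counts by parental allele, so what follows concerns the level of each gene and not its imprint.

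Of the 6 genes, Ndn and Snrpn have the start regions in which a palindromic 8-base sequence was found, CGCATGCG, known as the core of the motif bound by the transcription factor NRF1. Each start region was a window of 300 bases, 250 before and 50 after a RefSeq start site on GRCm38.p6, the assembly also called mm10. The word was searched on both strands, which are the same for a palindrome, and it does not overlap another motif searched. It occurred in 5 of the 9 windows of the members, 1 of Ndn and all 4 of Snrpn, and in 615 of 32851 windows of all genes (1.87%). The 4 Snrpn windows belong to 1 gene, and 3 of them resemble one another in sequence, so they are not independent, and a match is a description of the letters and not a binding site. The 20-base stretches are shown with the word in capitals, because they are what the start regions of Ndn and Snrpn have in common.
Ndn, chr7:62348248.0-62348267.0, plus strand: ccaacaCGCATGCGcaatat
Snrpn start at 60005199, chr7:60005150.0-60005169.0, minus strand: ctgggaCGCATGCGtaggga
Snrpn start at 60047978, chr7:60048036.0-60048055.0, minus strand: catgcaCGCATGCGtcgttg
Snrpn start at 60140225, chr7:60140290.0-60140309.0, minus strand: catccaCGCATGCGtgatgg
Snrpn start at 60450177, chr7:60450227.0-60450246.0, minus strand: catccaCGCATGCGtgattg
The word began 23 bases before the Ndn start site, which lies inside the single exon of the longer GENCODE M21 model of Ndn. At Snrpn it began 36 bases after the start at 60005199, and 71, 78 and 63 bases before the starts at 60047978, 60140225 and 60450177. The windows of Magel2, Mkrn3, Peg12 and Ube3a did not hold these letters.

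The Snrpn start regions differ in sequence, and they are printed here for the start next to the body of the gene and for 1 of the distal starts, because the transcript tables separate these starts. Sequences are from RefSeq on GRCm38.p6, read 5′ to 3′ along the gene, with the same word in capitals where it occurs.
Before the Snrpn start at 60005199, chr7:60005200-60005449, minus strand: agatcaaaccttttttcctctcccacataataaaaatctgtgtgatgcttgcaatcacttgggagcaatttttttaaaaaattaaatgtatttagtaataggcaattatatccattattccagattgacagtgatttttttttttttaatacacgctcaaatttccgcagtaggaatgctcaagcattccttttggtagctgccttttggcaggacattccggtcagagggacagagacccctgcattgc
Before the Snrpn start at 60140225, chr7:60140226-60140475, minus strand: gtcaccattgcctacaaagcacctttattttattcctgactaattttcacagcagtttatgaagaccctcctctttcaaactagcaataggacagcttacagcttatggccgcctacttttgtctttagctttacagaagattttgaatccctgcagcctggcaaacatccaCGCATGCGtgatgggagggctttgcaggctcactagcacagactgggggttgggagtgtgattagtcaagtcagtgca
The 250 bases before the 3 distal Snrpn starts were 76.7 to 79.8% identical to one another in gapped pairwise alignment. They were 48.5 to 52.1% identical to the 250 bases before the start at 60005199. The identity that unrelated sequences reach in such an alignment was not measured. The 250 bases before the start sites held 2 to 4 CpG dinucleotides in the Snrpn windows, 5 in Ndn, 7 in Magel2, 8 in Peg12 and 10 in Mkrn3. Ube3a had 24 CpG and a GC content of 70%, and 88% of all promoters had fewer CpG. The median over all promoters was 6, with quartiles at 2 and 16, so Ube3a was the only member above the upper quartile.

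Levels are given as coding TPM, the deposited TPM rescaled to sum to 1000000 over protein-coding genes within each library, a per-length scale on which genes can be compared. Replicate 1 held 62516003 and replicate 2 held 65912060 expected counts. The members spanned from 4.777 ± 1.013 coding TPM for Peg12 to 1009 ± 291.7 for Ndn, with a median of 55.37 ± 5.575. For scale, 13596 protein-coding genes reached 1 coding TPM in both libraries and had a median of 27.01. In falling order the genes were Ndn, Snrpn, Ube3a, Mkrn3, Magel2 and Peg12, and this order was the same in both libraries. No neighbours in it had ranges that overlapped, although with 2 libraries the smallest p of an exact permutation test is 0.5. The plot of levels by gene and library shows this spacing.

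**Figure D1:**
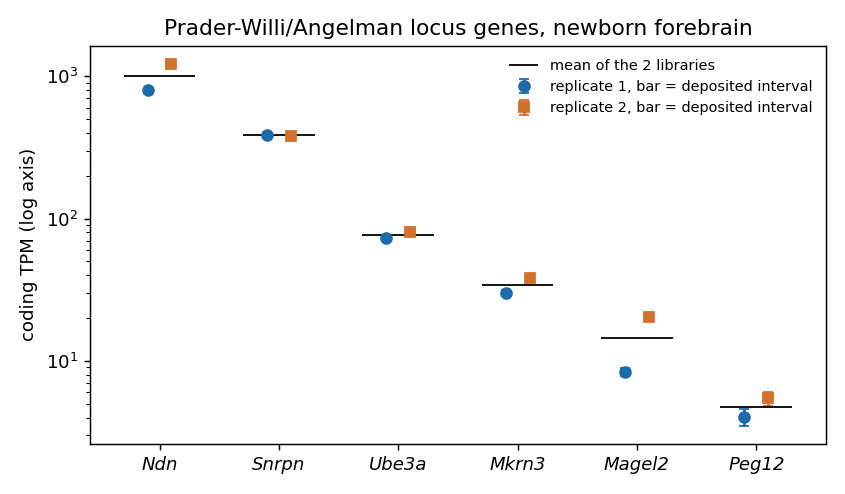
Level of each gene in coding TPM on a log axis, with replicate 1 as circles, replicate 2 as squares, the deposited interval of each TPM as a bar (mostly smaller than the symbol), and the mean of the 2 libraries as a line. Ndn stood highest at 803.2 and 1216, Peg12 lowest at 4.061 and 5.493, and the libraries were farthest apart in proportion for Magel2 (8.418 and 20.38).

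Ndn (ENSMUSG00000033585.4, mm10 chr7:62346569-62350262, plus strand, 1 exon) encodes necdin, a MAGE-family protein of postmitotic neurons that binds E2F1, p53 and neurotrophin receptors. It had 803.2 coding TPM in replicate 1 and 1216 in replicate 2, from 24757 and 40443 counts. It ranked 106th among protein-coding genes, and its level was higher in replicate 2, with a log2 ratio of TMM-scaled counts of 0.43 (SE 0.012). That ratio passed the exact binomial test (Benjamini-Hochberg adjusted p = 5.39e-301) but not the 2-fold threshold. The tables give Ndn a length of 1652 nt, shorter than the 3694 nt of the M21 model. The closest protein-coding genes by level in both libraries were Rpl11, a ribosomal protein gene at 845.5 and 1090 coding TPM, and Maged1 at 903.9 and 1114. Likeness was the distance between log2(coding TPM + 0.1) values over 2 libraries only, and was 0.174 and 0.212.

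Magel2 (ENSMUSG00000056972.5, chr7:62377010-62381640, plus strand, 1 exon) encodes another MAGE protein, which joins the TRIM27-USP7 ubiquitin ligase in the WASH and retromer pathway of endosomal recycling and is known for expression in hypothalamus. Its level was 8.418 coding TPM in replicate 1 and 20.38 in replicate 2 (14.4 ± 8.462), from 814 and 2155 counts. Magel2 was the only member called different between the libraries, which required an adjusted p under 0.05 and at least a 2-fold ratio. It was 2.181-fold higher in replicate 2 (log2 ratio 1.12, SE 0.059, exact binomial test with Benjamini-Hochberg adjustment, p = 2.13e-86), and 94.9% of tested genes had a lower ratio. Of all 17544 genes tested, 10.3% were called in either direction and 5.43% higher in replicate 2, so 1 of 6 members is not far from the background. Within a library Ndn exceeded Magel2 by 95.41-fold in replicate 1 and by 59.64-fold in replicate 2, although both are single-exon genes whose M21 models lie next to each other. The nearest protein-coding genes in level were Chac1 (8.492 and 19.57) and Lox (7.753 and 20.84), at distances of 0.060 and 0.121.

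Mkrn3 (ENSMUSG00000070527.3, chr7:62417593-62420139, minus strand, 1 exon) encodes a makorin, a RING-finger ubiquitin ligase known as an inhibitor of puberty onset. It had 30.2 and 38.18 coding TPM in replicates 1 and 2 (34.19 ± 5.642), from 1525 and 2091 counts. It was higher in replicate 2 by a log2 ratio of 0.18 (SE 0.049), which passed the exact binomial test (adjusted p = 0.000638) without reaching 2-fold. Its non-imprinted family members stood higher, Mkrn1 at 234.4 ± 27.34 and Mkrn2 at 53.91 ± 3.435. Mkrn3 was thus 0.1405 and 0.1505 of Mkrn1, and 0.536 and 0.7416 of Mkrn2, in replicates 1 and 2. Nanos1 (30.28 and 38.27) and Tex10 (30.13 and 37.95) were nearest to it in level, at distances of 0.005 and 0.009.

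Peg12 (ENSMUSG00000070526.2, chr7:62461871-62464510, minus strand, 1 exon), also called Frat3, encodes a protein of the FRAT family, which binds the kinase GSK3 in WNT signalling. It had 4.061 and 5.493 coding TPM, from 212 and 312 counts, the fewest of any member. Replicate 2 was higher by a log2 ratio of 0.28 (SE 0.128), just short of the threshold in the exact binomial test (adjusted p = 0.0505). With DESeq2 size factors the adjusted p was 0.0478, with library totals 0.000451 and with coding totals 0.022, so whether Peg12 passed depended on the scaling. Its paralogues were more abundant, Frat1 at 20.48 ± 3.727 and Frat2 at 17.8 ± 5.328 coding TPM, and Peg12 was 0.1757 and 0.3079 of Frat1 and 0.2895 and 0.2547 of Frat2. In level it was nearest to Nsrp1 (4.061 and 5.493, a distance of 0.000) and Slc38a9 (4.061 and 5.448, a distance of 0.012).

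Snrpn (ENSMUSG00000102252.1, chr7:59982495-60140219, minus strand) encodes SmN, the form of the SmB/B′ protein found in the spliceosomal core of neurons. It had 386.9 and 382.3 coding TPM (384.6 ± 3.268), from 14327 and 15314 counts, the smallest spread of the members in proportion to the level. By TMM-scaled counts it was lower in replicate 2, with a log2 ratio of -0.18 (SE 0.017, exact binomial test, adjusted p = 1.47e-26), but with library totals the direction turned (log2 ratio 0.01). Snrpb, the ubiquitous gene for SmB/B′, had 296.9 and 293.9 coding TPM, so that Snrpn was 1.303 and 1.301 times as abundant in replicates 1 and 2. Rtn4 (375.9 and 384.2) and Pfn1 (376.7 and 392.9) were nearest to Snrpn in level, at distances of 0.043 and 0.055.

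Almost all of the Snrpn signal was assigned to the transcript that starts next to the body of the gene. Snrpn-201 (10 exons, chr7:59982495-60005111) held 98.21% of the gene's TPM in replicate 1 and 98.35% in replicate 2 (98.28 ± 0.09899%), from 14048.8 and 15039.8 counts. Snrpn-202 (11 exons), which begins upstream at -135.1 kb from the Snrpn-201 start, next to the distal start whose sequence is printed above, held 1.79 and 1.65%, at 6.941 and 6.311 coding TPM. Its 278.4 and 274 counts carried a posterior SD of 34.57 and 45.2, since the transcripts share most of their exons. The distal transcript was therefore listed above 0 beyond this uncertainty in both libraries, at a level between those of Peg12 and Magel2. The starts at 60047978 and 60450177 have no Snrpn transcript of their own in the tables. Snrpn-201 begins 3′ of the RefSeq start at 60005199.

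Few reads were uncertain in their assignment between Snrpn and the genes that overlap it, with a posterior SD of 1.67 and 1.03 counts for Snrpn as a gene. Gm38393 (ENSMUSG00000000948.12, chr7:59974149-60005064), a readthrough gene across Snrpn, Snurf and the 5′ part of Snhg14, had 57.82 and 78.18 coding TPM. Most of this was Gm38393-203, a single-exon transcript 3′ of Snrpn that does not overlap it, with 81.64 and 78.14% of the gene's TPM. Snurf, the small upstream reading frame of the Snrpn messenger RNA, is a separate entry of 216 nt within the span of Snrpn-201 and was listed at 0 in both libraries. That length is below the 247.7 and 268.7 nt by which effective lengths were shortened, so the 0 is no measure of its level.

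Ube3a (ENSMUSG00000025326.8, chr7:59228750-59311536, plus strand) encodes the E6-AP ubiquitin ligase of the HECT family. It had 72.66 and 80.45 coding TPM (76.55 ± 5.507), from 7735 and 9341 counts. The log2 ratio of replicate 2 over replicate 1 was -0.01 (SE 0.022, exact binomial test, adjusted p = 0.812) by TMM, but 0.19 by library totals, 0.04 by coding totals and 0.15 by coding TPM, so its direction depended on the scaling. The related HECT ligases Ube3c, at 72.59 and 82.76, and Ube3b, at 41.87 and 45.17, gave like proportions in both libraries, with Ube3a at 1.001 and 0.972 of Ube3c and at 1.735 and 1.781 of Ube3b. The tables list a single Ube3a transcript, Ube3a-201 with 11 exons, which held 100% of the gene by construction. Alternative 3′ ends of Ube3a therefore could not be followed. The nearest genes in level were Zfp512 (72.51 and 80.67) and Celf1 (72.22 and 80.45), at distances of 0.005 and 0.009.

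Between Snrpn and Ube3a lies Snhg14, whose 2 annotated pieces nearest to Ube3a stood well below Ube3a itself. The gene (ENSMUSG00000100826.2, chr7:59307924-59975759, minus strand) as a whole had 526 and 771.6 coding TPM as a sum over 15 annotated fragments. By TMM-scaled counts it was higher in replicate 2 (14333 and 21761 counts, log2 ratio 0.32, SE 0.016, exact binomial test, adjusted p = 6.1e-96). It stood at 1.359 times the level of Snrpn in replicate 1 and 2.018 times in replicate 2. Fragments add to a sum that is not the level of 1 molecule, so the pieces are given by the distance of their 5′ end from the Snrpn-201 start. Snhg14-211, at 29.35 kb, had 48.59 and 65.01 coding TPM, and the highest piece, Snhg14-208 at 551.9 kb, had 131.1 and 169.5. Snhg14-210, at 593.9 kb, had 40.54 and 68.19. The pieces in between and before these did not fall steadily with distance. The lowest of those with at least 10 counts in replicate 1 was Snhg14-212, 1 of the 2 pieces closest to Ube3a, as the plot by distance shows.

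**Figure D2:**
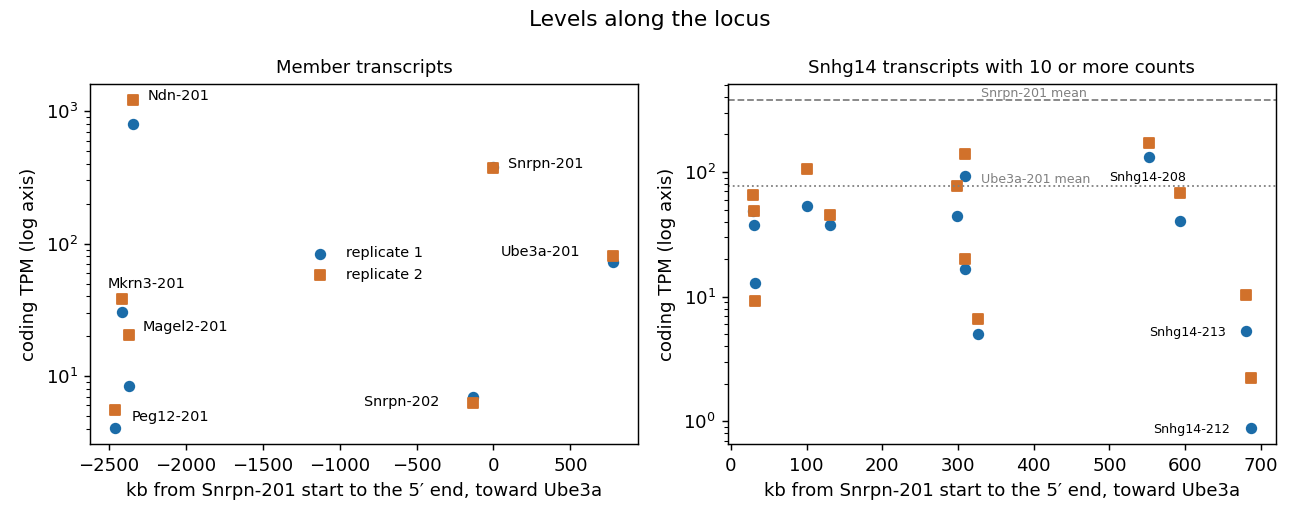
Coding TPM (log axis) of annotated transcripts against the distance in kb of their 5′ end from the Snrpn-201 start, positive toward Ube3a, with replicate 1 as circles and replicate 2 as squares. On the left are the members' transcripts, and on the right the Snhg14 pieces with at least 10 counts in replicate 1, of which Snhg14-213 and Snhg14-212 near Ube3a were at 5.317 and 0.8861 in replicate 1, below the dotted line of Ube3a.

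Snhg14-213, whose 5′ end is at 681 kb, had 5.317 and 10.26 coding TPM from 403 and 847 counts, and Snhg14-212 at 686.7 kb had 0.8861 and 2.225 from 56 and 153 counts. Both were below Ube3a in both libraries, although Snhg14-214, at 326.5 kb, was about as low as Snhg14-213, with 5.021 and 6.674. Snhg14-213 is the piece that comes closest to the measured Ube3a transcript. It overlaps the longer M21 gene by 3613 nt but stops 1196 nt short of the 3′ end of Ube3a-201, which it does not overlap. Its level was 0.07318 of that of Ube3a in replicate 1 and 0.1275 in replicate 2. The libraries are stranded per the labels, but how strand was used in counting is not given in the sources used here.

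Across the 3.236 Mb from Ube3a to Peg12 (chr7:59228750-62464510) the tables list 244 genes, of which 11 had counts, all 11 with a mean of at least 10. Of the others, 210 are snoRNA entries (17 with a Snord116 symbol and 191 with no Snord symbol) and 20 are miRNAs. All of these stood at 0 with an effective length of 0 in libraries of RNA longer than 200 nt, so the snoRNAs that the locus is known for were not measured. Beside the members, Snhg14 and Gm38393, 3 genes of low count remained. The lincRNA A230006K03Rik had 76 and 139 counts (log2 ratio 0.59, SE 0.205, exact binomial test, adjusted p = 0.0079) and was not called. The pseudogene Gm7367 was lower in replicate 2, with 209 and 59 counts (log2 ratio -2.10, SE 0.378, with a posterior SD of 16.35 and 12.09 counts), and so was the lincRNA Gm9801, with 23 and 6 (log2 ratio -2.13, SE 0.618). Gm7367, Gm9801 and Magel2 were the 3 genes called in the interval.

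Between the isolates the members' log2 ratios ranged from -0.18 for Snrpn to 1.12 for Magel2. With no fold threshold, 4 of 6 passed the exact binomial test with Benjamini-Hochberg adjustment, Ndn, Magel2 and Mkrn3 higher in replicate 2 and Snrpn lower. At this depth 65% of all tested genes passed it and 32% passed it higher in replicate 2, so the count is near the background. At 1.5-fold, 1 member was called, where 19.6% of all genes were. The members' median log2 ratio was 0.23, against 0.00 over all 17544 genes, whose quartiles were -0.27 and 0.26. Scaling by library totals moved the median of all genes to 0.19 and that of the members to 0.42. By that scaling 9383 genes passed the exact binomial test higher in replicate 2 and 3011 lower, against 5610 and 5785 by TMM, and 5 members passed higher and 0 lower. In this bulk tissue, fewer cells of a type and less RNA per cell cannot be told apart.

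**Figure D3:**
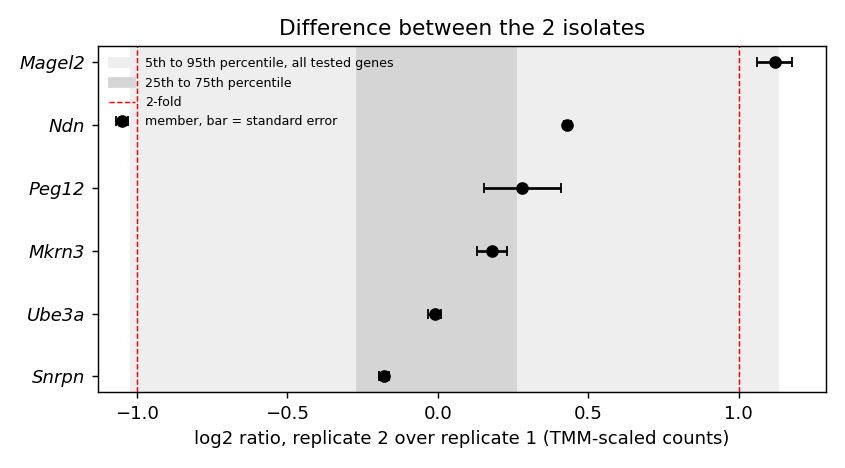
Log2 ratio of replicate 2 over replicate 1 in TMM-scaled counts for each member, with its standard error as a bar, over the 25th to 75th and 5th to 95th percentiles of all tested genes in grey and the 2-fold thresholds as dashed lines. Magel2 at 1.12 lay past the 2-fold threshold and just inside the 95th percentile of 1.13, and Snrpn at -0.18 lay lowest.

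Other imprinted genes, from loci elsewhere in the genome, were mostly higher in replicate 2 as well. Of 25, 22 passed the exact binomial test with Benjamini-Hochberg adjustment in that direction and 0 in the other, where 32% of all tested genes passed higher. Igf2 among them is also counted in the meningeal fibroblast list. The median log2 ratio of the 25 was 0.47, beside 0.00 over all genes. The most abundant were Nnat, a proteolipid gene, with 4488 and 7025 coding TPM, Gnas, which encodes a G protein subunit, with 1309 ± 204.8, and the noncoding Meg3 with 802.2 and 1049. Ndn was thus near the level of Meg3 in both libraries. Peg10, a retrotransposon-derived gene (log2 ratio 1.36, SE 0.028), and Asb4 (1.14, SE 0.086) were called at 2-fold, as Magel2 was. The lowest of the list, Kcnq1ot1, had 3.276 ± 0.2468 coding TPM and a log2 ratio of 0.01.

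Markers of tissue parts and other cell types also differed between the isolates. The telencephalic factors, which define most of the labelled tissue, were present in both libraries, with Bcl11b at 100.1 and 117.8 coding TPM and Lhx2 at 84.84 and 79.63. Their 12 genes summed to 463.4 coding TPM in replicate 1 and 496.8 in replicate 2. Their median log2 ratio was 0.22, close to that of the members, with 7 of 12 passing the exact binomial test higher in replicate 2 and 3 lower. Emx1 (-0.84) and Lhx2 (-0.34), factors of dorsal telencephalon, were lower, and Dlx5 (0.79), Pax6 (0.78) and Dlx1 (0.52) were higher. Of 12 hindbrain and spinal cord factors, 5 had no count in either library, Hoxa2, Hoxb2, Hoxb4 and Hoxd4 among them, and the list summed to 13.37 and 17.39, mostly from Gbx2 (8.935 and 13.76). Of its 5 tested genes 3 were called by the exact binomial test, En1 (46 and 15 counts, log2 ratio -1.86) and En2 (33 and 4, -3.18) lower in replicate 2 and Lmx1b (48 and 211, 1.85) higher, with a median log2 ratio of -0.89. Neuronal genes had a median log2 ratio of -0.12, with 0 of 10 called, and a median level of 300.3 ± 27.93. Median log2 ratios were 0.17 for radial glia and progenitor genes, -0.35 for astrocyte, -0.14 for oligodendrocyte lineage, -0.11 for microglial, 0.27 for endothelial and pericyte, -0.71 for erythroid and -0.26 for choroid plexus genes.

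Hypothalamic genes were among those higher in replicate 2, as Magel2 was. Of the 17 genes, all with counts, 15 were tested, and 7 were called higher in replicate 2 and 1 lower by the exact binomial test with Benjamini-Hochberg adjustment. Of all tested genes 5.43% were called higher. The 7 genes of the list were Rax (log2 ratio 2.71, 7 and 59 counts), Nr5a1 (2.41, 12 and 80), Hmx3 (1.84, 10 and 45), Otp (1.77, 56 and 233), Hcrt (1.68, 13 and 52), Sim1 (1.55, 261 and 929) and Fezf1 (1.51, 264 and 916). Most of them are developmental transcription factors, and the largest ratios rest on few counts. The neuropeptide gene Oxt was lower (-1.37, 54 and 25 counts). Otp, which is needed for neuroendocrine neurons, stood at 1.034 and 4.131 coding TPM, and Sim1 at 1.698 and 5.448. Avp, the most abundant of the list, was at 84.55 and 88.62 coding TPM, with a log2 ratio of -0.17 (SE 0.081) by scaled counts. Gal also had a ratio below 0 (-0.35, 21 and 20 counts), and 12 of the 15 tested genes had a ratio above 0. The summed level of the list was 197.8 and 268.2 coding TPM, of which Lhx6 alone held 54.13 and 80.58. The list's median log2 ratio was 0.60, and that of Lhx6 was 0.31. Nkx2-1, a factor of ventral telencephalon and hypothalamus, was likewise called higher (2.806 and 9.942 coding TPM, a 2.832-fold ratio of scaled counts). Of 7 meningeal fibroblast genes 3 were called higher (Col1a1, Col1a2 and Lum), with a median log2 ratio of 0.85 and a summed level of 358.5 and 925.6, and none of the 7 was at 0. Collagen genes are also expressed in bone, and in the skeletal muscle and bone list 4 of 6 tested genes were called. The bone matrix gene Ibsp was higher in replicate 2 (2.511 and 19.48 coding TPM, 6.841-fold by scaled counts), and the muscle genes Acta1 (log2 ratio -1.07), Ckm (-2.33) and Myh3 (-1.54) were lower. Sp7, an osteoblast factor, was 1.923-fold higher and not called. This list summed to 29.17 and 35.32 coding TPM, with a median log2 ratio of -0.49 and none of its 7 genes at 0. The part of all these cells in the ratios of Magel2, Ndn and the other members was not tested.

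**Figure D4:**
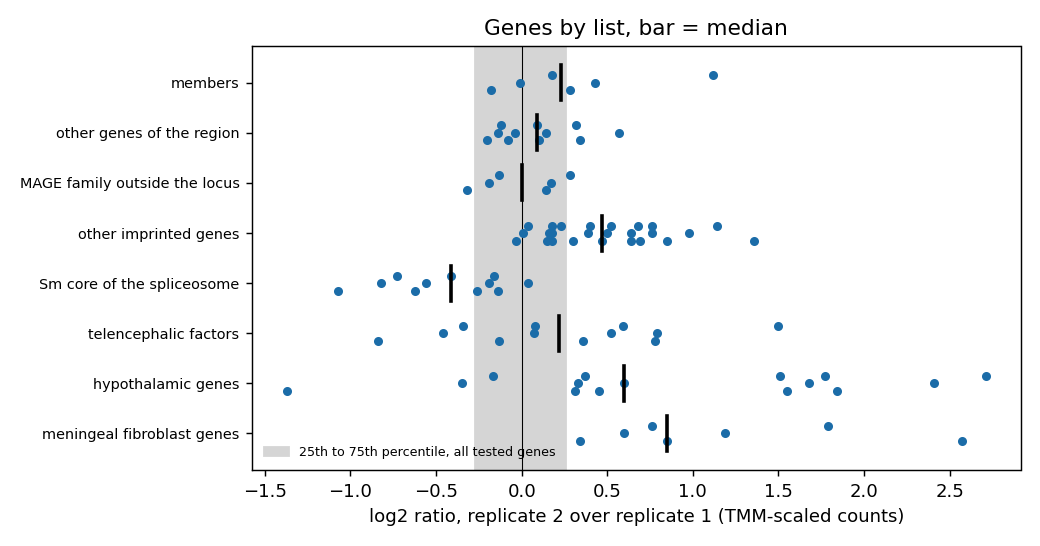
Log2 ratio of replicate 2 over replicate 1 for each tested gene of 8 lists (members, other genes of the region, other MAGE genes, other imprinted genes, Sm core, telencephalic, hypothalamic and meningeal), with the list's median as a bar and the 25th to 75th percentile of all tested genes in grey. The medians lay at 0.23 for the members, 0.47 for other imprinted genes, 0.60 for hypothalamic genes and 0.85 for meningeal fibroblast genes. That of the Sm core list, which also holds other snRNP genes, was -0.41.

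The remaining groups describe the company that the members' proteins keep, and they were read beside the same background. Among other genes of the region, inside the interval (Snhg14 and Snurf) or on either side of it, 12 of 13 listed were matched and 11 tested, with 0 called and a median log2 ratio of 0.09. Gabra5, a GABA-A receptor subunit gene of the region, stood at 89.27 and 90.75 coding TPM. Oca2, a pigment gene, was the lowest of these with counts, at 1.258 ± 0.6231. Gabra5 thus exceeded Ube3a in both libraries.

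Among MAGE genes outside the locus, 8 of 9 were matched and 6 tested, 0 were called and the median log2 ratio was 0.00. Maged1, which like necdin binds the neurotrophin receptor NGFR, had 903.9 and 1114 coding TPM, which put Ndn at 0.8886 and 1.091 of it, so neither was the higher in both libraries. Maged2 had 316.2 ± 8.17 and Magee1 143.8 ± 30.62, while Magea10 and Mageb4, members of the testis-type classes, had no counts. Of 13 necdin partner genes 0 were called, with a median log2 ratio of 0.20. Bmi1, a Polycomb gene, had 90.41 ± 2.15 coding TPM and Trp53 40.17 ± 1.877.

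All 11 genes of the MAGEL2 ligase, WASH complex and retromer exceeded Magel2 in level, and 0 of them were called, with a median log2 ratio of -0.16. The highest were the retromer subunits Vps35, at 196.8 ± 11.76, and Vps29, at 141.9 ± 12.28, and the deubiquitinase Usp7 at 154 ± 54.45 coding TPM. The ligase gene Trim27 had 51.31 ± 9.489, and the lowest was the WASH subunit Washc4 at 25.18 ± 4.588.

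Of makorins and known or proposed MKRN3 targets, 11 of 12 were matched and 9 tested, with a median log2 ratio of 0.09. Tac2, the neurokinin B gene, was called on 5 and 26 counts (log2 ratio 1.99, SE 0.649, exact binomial test, adjusted p = 0.00263). The poly(A)-binding protein genes Pabpc1 and Pabpc4 had 103.9 ± 4.762 and 84.78 ± 5.553 coding TPM. Lin28a, a regulator of let-7, was lowest at 0.0227, on 2 and 4 counts. Of 11 genes of the FRAT and GSK3 pathway 0 were called, with a median log2 ratio of 0.10. Ctnnb1, the beta-catenin gene, had 897.7 ± 172.4 coding TPM, Apc 296.2 ± 14.32 and Gsk3a 144.3 ± 4.032.

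By TMM, 10 of 11 genes in the Sm core and snRNP list passed the exact binomial test with Benjamini-Hochberg adjustment lower in replicate 2. Of all 17544 tested genes 5785 passed lower. The list's median log2 ratio was -0.41. Snrpn was also lower by TMM (-0.18) but stood at 0.01 by library totals. With library totals 5 of the list passed lower and 1 higher, with a median of -0.22, where 3011 of all genes passed lower. Snrpd2 was called (log2 ratio -1.07, SE 0.052, adjusted p = 1.33e-97). Snrpe had 236.9 ± 64.15 coding TPM and a log2 ratio of -0.82, and Snrpd3 was lowest at 22.62 ± 1.077. Snrpn was above every gene of this list in both libraries. Of 13 partners and substrates of UBE3A and other HECT ligases 0 were called, with a median log2 ratio of -0.05. Nedd4, a ligase gene highly expressed in embryonic brain, had 416.2 ± 52.71 coding TPM, and the proteasome subunit genes Psmd2 and Psmd4 had 231.3 ± 2.596 and 222.3 ± 35.2. Arc, an activity-regulated gene, was lowest at 8.023 ± 1.394.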

How the data were processed

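Total RNA of 2 newborn forebrain libraries was analysed as 1 group. Quantification per library used the mm10 assembly and GENCODE M4, per the text files deposited with each sample. Which aligner and quantifier were run is not given in the sources used here. The authors deposited expected counts, which need not be whole, and posterior mean counts. The deposited TPM sum over all features, spike-ins included. Isoform values are the percent of a gene's TPM per transcript, per the file headers. The posterior SD of each count and the bounds of each TPM interval were used as deposited, each as a score with no fixed range.

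Genes were matched by identifier to GENCODE M21 (42462 of 43346), which gave symbols and coordinates. TPM was rescaled to protein-coding genes by factors of 7.384 and 4.54. Expected counts were rounded, and TMM factors came from edgeR 4.0.16 and size factors from DESeq2 1.42.0 in R 4.3.3. Ratios have 0.5 added to each count, with an SE from counting and the posterior SD. Each gene with a mean of at least 10 counts (17544 genes) had a two-sided exact binomial test with Benjamini-Hochberg adjustment. A gene was called at an adjusted p under 0.05 and 2-fold. Of the steps, only this test was tried on simulated data, with Poisson counts that hold no variation beyond counting. Standard errors cover counting and the posterior SD only, and neither they nor the deposited intervals cover variation between animals. RefSeq windows on GRCm38.p6 were searched for 1 motif. The remaining steps ran under Python 3.11.15 (scipy 1.17.1, numpy 2.4.6, matplotlib 3.10.9, pandas 2.3.3).

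Named were all members, every gene of the interval with a mean of at least 10 counts, per list the 3 highest, the lowest and any called gene, and the 2 protein-coding genes nearest in level to each member; further genes were chosen after their values were seen, and some that meet the rule are not reported here. Members and lists were chosen with earlier results of these data known. Ipw, Magef1 and Kiss1 were not matched. Alternatives were other scalings, count filters, posterior means, fold thresholds, lengths and leaving out each replicate; summing Snrpn with Gm38393 was added after seeing the data.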

Additional observations from a re-analysis of the deposited data

How the results depend on the processing

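With no fold threshold 4 members were called; 1 was called under the main setting and the other 7 alternatives. The members' median level was 63.58 coding TPM with counts per annotated length and 18.74 on the other scale of TMM-scaled CPM per kb, 57.96 without mitochondrially encoded genes and 54.64 from posterior means, and 51.43 to 59.31 when 1 replicate was left out. The Snrpn-201 share was 98.13% by expected counts, and 98.21 to 98.35% when 1 replicate was left out; that of Ube3a-201 was 100% throughout. The log2 ratio of Snrpn turned to 0.01 with library totals, and that of Ube3a from -0.01 to 0.19 with library totals, 0.04 with coding totals and 0.15 with coding TPM; that these turned with the scaling follows from ratios close to 0, and the cause of the difference between scalings was not tested. The log2 ratio of Magel2 ranged from 1.12 to 1.32. Adding Gm38393, most of whose counts lie outside Snrpn, gave 452.6 coding TPM and a log2 ratio of -0.08 for the sum. No paired analysis was possible because the libraries form 1 group. Depth limits Peg12 most (212 and 312 counts), and 2 libraries with the same donor identifier give no estimate of variation between litters.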
